A study of Danio rerio with 5 samples.

Results

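Digestive enzyme genes of the exocrine pancreas were examined in whole zebrafish larvae with and without a deletion in zbtb24. The genes were chosen by name. They were the trypsinogen genes prss1, prss59.1 and prss59.2, the chymotrypsinogen gene ctrb1, the carboxypeptidase genes cpa5 and cpb1, the elastase genes ela2, ela2l and ela3l, and the amylase gene amy2a. Of these 10 genes, 9 were listed under that symbol among the 21854 genes of the table. The trypsinogen prss1 was listed under an older symbol, try (ENSDARG00000042993), and its values are given beside the 9 but are not counted with them.

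ZBTB24 is a zinc finger protein, and mutation of its gene in people causes a form of ICF syndrome, which combines immunodeficiency and facial anomalies with unstable centromeres. The libraries labelled Mutant came from larvae homozygous for the mk22 allele of zbtb24, a deletion made with TALENs that removes a large part of the coding sequence, and those labelled WT came from wild type larvae. All larvae were 2 weeks old, RNA of 10 larvae was pooled for a library, and the labels give no further allele or treatment. The table held 3 libraries labelled Mutant (replicates 1 to 3) and 2 labelled WT, which are named by their column numbers 2 and 3 because these could not be tied to single samples. The series text describes 3 pools for each genotype, so 1 pool of wild type larvae is not analysed here.

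The exocrine pancreas is made of acinar cells, which fill with zymogen granules and release them into the gut through a duct. Most of their proteases are made as inactive zymogens, and trypsin, once switched on in the gut, activates the others. In zebrafish the acinar tissue forms from cells that express ptf1a and secretes enzymes from the first week of life, when the larva begins to feed.

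Libraries held from 24504651 to 26711419 reads assigned to genes in the Mutant group, and 28601962 and 23796792 in the WT group. GEO's source label for the samples is fin, whereas the series text gives whole larvae. Defining markers of liver, gut, islet, photoreceptor and heart were detected in all 5 libraries, as were the acinar markers ctrl, cel.1, sycn.2 and ptf1a. The targeted gene was higher, not lower, in the libraries labelled Mutant. By qRT-PCR, the study that reported these data found no detectable zbtb24 transcripts in fish homozygous for the deletion. Scaled counts of zbtb24 were 155, 175 and 282 in Mutant replicates 1 to 3, against 127 and 77.3 in WT columns 2 and 3, and a log2 fold change of 0.98 (SE 0.28) missed the threshold (limma, adjusted p = 0.0642). A count per gene cannot tell deleted from intact transcripts, so directions are given here for libraries as labelled.

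The enzyme genes took a large share of all reads in every library. A scaled count is the number of reads of a gene divided by a size factor of its library. The 9 genes together made up 1.78%, 1.91% and 1.91% of the scaled counts of Mutant replicates 1 to 3, against 1.81% and 2.16% in WT columns 2 and 3. The mean was 1.87% ± 0.0750 in the Mutant group (SD, n = 3) and 1.98% ± 0.252 in the WT group (SD, n = 2). The WT libraries held both the highest of these shares and a value below those of Mutant replicates 2 and 3, so the groups overlapped. The exact 95% binomial interval of each share was narrow, from 1.777% to 1.787% in Mutant replicate 1 and from 1.800% to 1.810% in WT column 2. Such intervals cover counting error only, and the gap between the WT libraries was far wider.

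Added up as scaled counts, the 9 genes gave 470865, 504103 and 504999 in Mutant replicates 1 to 3, against 444446 and 544410 in WT columns 2 and 3. The means were 493322 ± 19454 in the Mutant group (SD, n = 3) and 494428 ± 70685 in the WT group (SD, n = 2). Both the lowest and the highest sum were those of WT libraries. Scaled counts of all genes added up to 26430176, 26374301 and 26419530 in Mutant replicates 1 to 3, against 24622895 and 25190715 in WT columns 2 and 3. The shares were therefore taken of larger totals in the Mutant group. With try included, the share was 2.11%, 2.26% and 2.28% of the libraries labelled Mutant, against 2.16% and 2.58% of those labelled WT. In whole larvae, the number of acinar cells and the enzyme RNA per cell cannot be told apart.

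**Figure D1:**
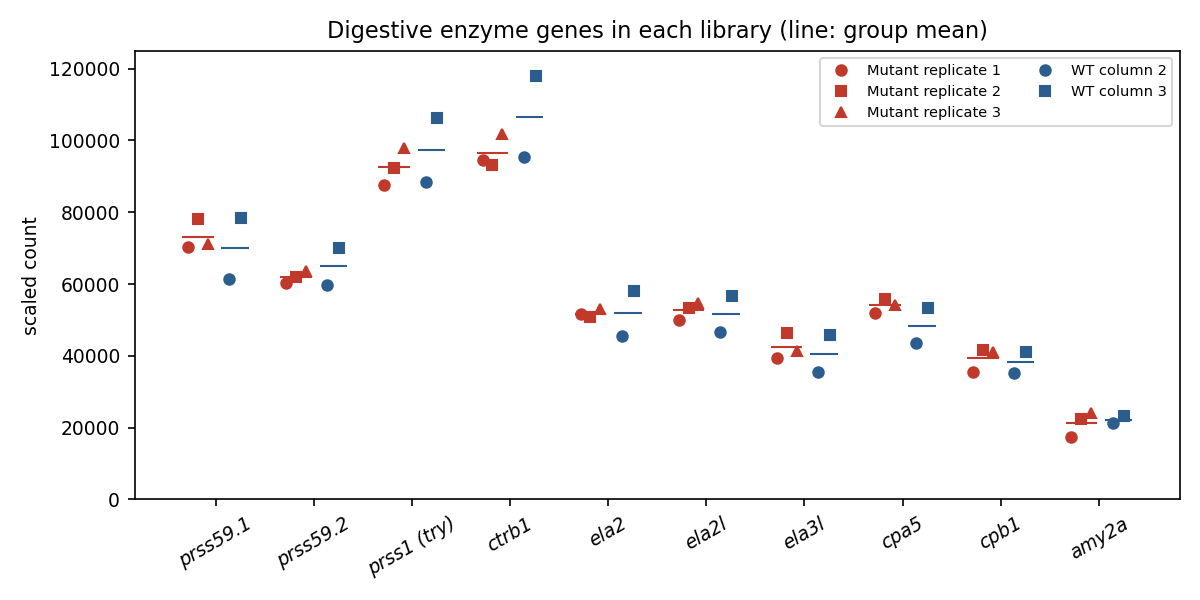
Scaled counts of the 9 enzyme genes and of prss1 (listed as try) in each library, with the libraries labelled Mutant in red to the left of those labelled WT in blue and a line at each group mean. The Mutant and WT points overlap for every gene shown, and WT column 3 lies above WT column 2 throughout.

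No enzyme gene passed the test for a difference between the groups. Every gene was fitted with limma on log2(scaled count + 1), and p-values were adjusted over all 20307 genes tested. Of the 9 genes, 0 passed an adjusted p of 0.05 in either direction, and 0 had an unadjusted p under 0.05. Among all genes tested, 674 (3.32%) passed as higher in the Mutant group and 544 (2.68%) as lower, and 26.7% had an unadjusted p under 0.05. A voom fit of the same values gave the same count of 0 enzyme genes at both limits. Values did not overlap between the groups for 44.9% of all genes tested and for 0 of the 9.

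The median log2 fold change of the 9 genes was 0.03, beside -0.001 over all genes tested. It was 0.08 over the 594 genes whose mean scaled count lay within 4-fold of those of the 9 genes. That set ran from 5431 to 402333 scaled counts and included the 9, which ran from 21724 to 100583. The least abundant of the 9, amy2a, ranked 151 among all genes, so most of the 594 were less abundant than any of the 9. Of those 594, 68 passed as higher in the Mutant group and 20 as lower. An unadjusted p under 0.05 was found in limma for 235 of them, and values of 304 did not overlap between the groups. Single genes of the 9 ranged from -0.14 for ctrb1 to 0.16 for cpa5. The 95% intervals of the 9 genes, as folds of Mutant over WT, lay between 0.746 and 1.34. A change of 2-fold in either direction was outside the interval of each gene.

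Trypsinogens lead the list because trypsin activates the other zymogens. Scaled counts of prss59.1 (ENSDARG00000079274) were 70188, 78238 and 71046 in Mutant replicates 1 to 3, against 61536 and 78302 in WT columns 2 and 3. All 3 Mutant values lay between the WT values, with a log2 fold change of 0.07 (SE 0.13) that did not pass (limma, adjusted p = 0.750). Its neighbour prss59.2 (ENSDARG00000073742) had 60159, 61909 and 63734 in the libraries labelled Mutant, against 59830 and 70101 in those labelled WT. Here too the Mutant values fell inside the WT pair (log2 fold change -0.06, SE 0.11). Reads of try numbered 87526, 92454 and 97832 as scaled counts in Mutant replicates 1 to 3, against 88557 and 106147 in WT columns 2 and 3. The groups overlapped, with a log2 fold change of -0.07 (SE 0.12). Together the 3 trypsinogens took 0.824%, 0.882% and 0.880% of the libraries labelled Mutant, against 0.853% and 1.01% of those labelled WT.

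The genes prss59.1 and prss59.2 lie next to each other on chromosome 16 in the RefSeq annotation of assembly GRCz12tu, which also places prss1 on that chromosome. The pair ela2 and ela2l is adjacent on chromosome 8, and cpa5 lies beside cpa1 on chromosome 25. How reads shared by such copies were counted is not given in the sources used here, so the split within a pair is less certain than its sum.

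Chymotrypsinogen is cut by trypsin to give chymotrypsin, which cleaves after large hydrophobic residues. Scaled counts of ctrb1 (ENSDARG00000090428) were 94695, 93131 and 101745 in Mutant replicates 1 to 3, against 95331 and 118014 in WT columns 2 and 3. Of the 9 genes this one had the lowest fold change, a log2 value of -0.14 (SE 0.13), and it did not pass (limma, adjusted p = 0.522). Its 95% interval ran from -0.42 to 0.15, and Mutant replicate 3 lay above WT column 2. Without WT column 3 the log2 fold change of ctrb1 was 0.02, so its sign rested on that library. A pair of related rows, outside the 9 and named after their values were seen, were zgc:136461 and zgc:112160. RefSeq names them ctrb.2 and ctrb.3, and ctrb.2 is the neighbour of ctrb1 on chromosome 7. Their log2 fold changes were 0.17 (SE 0.18) for zgc:136461 and 0.09 (SE 0.12) for zgc:112160, and neither passed. Both signs were positive where that of ctrb1 was negative, and both turned negative without WT column 2, at -0.21 and -0.03. Without WT column 3, zgc:136461 passed as higher in the Mutant group (log2 fold change 0.55; limma, adjusted p = 0.0233), the lowest adjusted p of its alternatives, which reached 0.833.

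Elastases are further proteases packed in the same granules. Scaled counts of ela2 (ENSDARG00000056744) were 51610, 50799 and 52981 in Mutant replicates 1 to 3, against 45623 and 58051 in WT columns 2 and 3. The libraries labelled Mutant were close together, with an SD of 1103, inside a wide WT pair. The log2 fold change of ela2 was 0.01 (SE 0.12), with a 95% interval from -0.26 to 0.28. Its neighbour ela2l (ENSDARG00000056765) had 49897, 53431 and 54646 in the libraries labelled Mutant, against 46566 and 56655 in those labelled WT. All 3 Mutant values again lay between the WT values (log2 fold change 0.03, SE 0.12). Scaled counts of ela3l (ENSDARG00000007276) were 39335, 46427 and 41405 in Mutant replicates 1 to 3, against 35412 and 45721 in WT columns 2 and 3. Mutant replicate 2 was the highest of the 5 libraries, and WT column 2 the lowest (log2 fold change 0.07, SE 0.13).

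Carboxypeptidases remove single residues from the end of a peptide, the A forms mainly hydrophobic ones and the B forms basic ones. Scaled counts of cpa5 (ENSDARG00000021339) were 52056, 55971 and 54113 in Mutant replicates 1 to 3, against 43644 and 53207 in WT columns 2 and 3. Mutant replicates 2 and 3 lay above both WT libraries and Mutant replicate 1 lay between them. Its log2 fold change was the highest of the 9, at 0.16 (SE 0.12), with a 95% interval from -0.10 to 0.43, and it did not pass (limma, adjusted p = 0.397). The value was 0.02 without WT column 2 and 0.31 without WT column 3. Scaled counts of cpb1 (ENSDARG00000045442) were 35393, 41770 and 41187 in the libraries labelled Mutant, against 35240 and 41101 in those labelled WT. The ends of the 2 ranges nearly coincided, with a log2 fold change of 0.05 (SE 0.12).

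Amylase, which splits starch, needs no activation in the gut. Scaled counts of amy2a (ENSDARG00000013856) were 17530, 22428 and 24141 in Mutant replicates 1 to 3, against 21264 and 23257 in WT columns 2 and 3. Mutant replicate 1 was the lowest of the 5 libraries and Mutant replicate 3 the highest. The log2 fold change of amy2a was -0.07 (SE 0.14), with a 95% interval from -0.38 to 0.24. It was 0.07 without Mutant replicate 1. Of the 9 genes amy2a had the largest residual SD, 0.204 on the log2 scale.

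**Figure D2:**
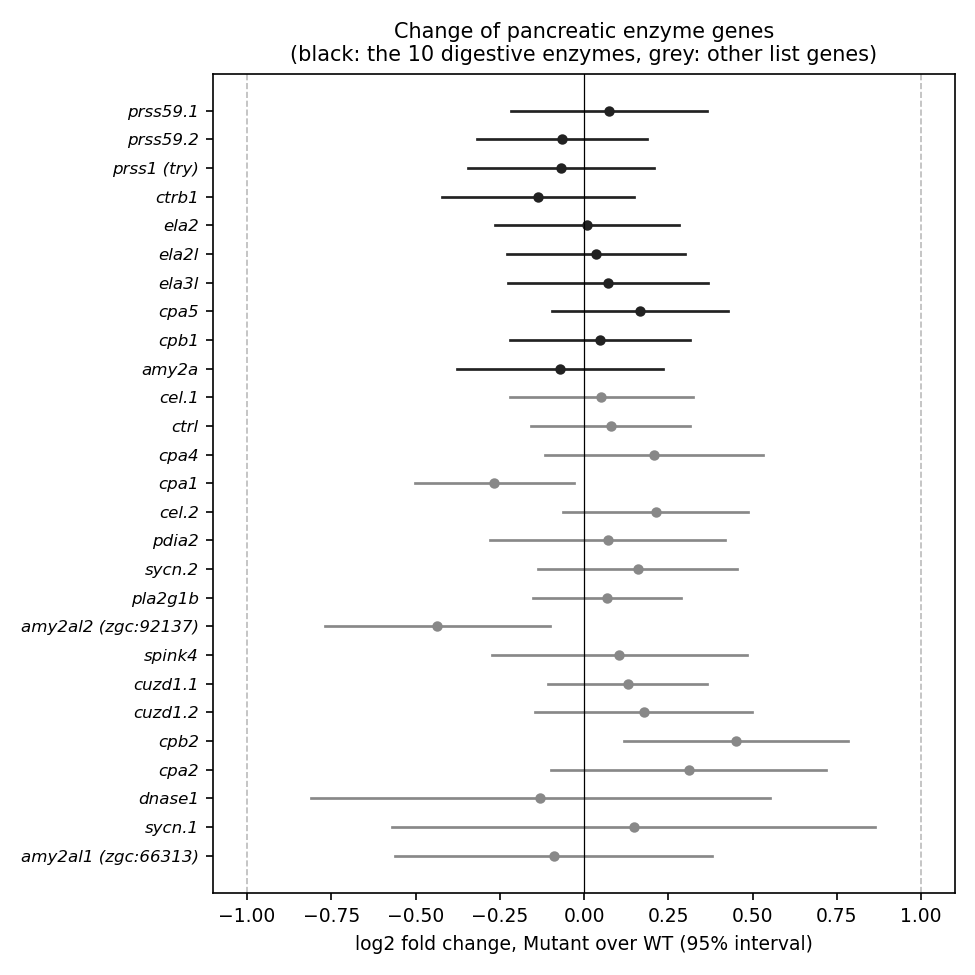
Log2 fold change of Mutant over WT with its 95% interval from limma, for the 9 enzyme genes and prss1 in black and for the other pancreatic genes of a list in grey, with dashed lines at a change of 2-fold. The interval of each black gene spans 0 and none reaches a dashed line, while cpa1, amy2al2 and cpb2 have intervals that do not span 0.

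The libraries differed more within the WT pair than the groups differed from each other. WT column 3 was above WT column 2 in 9 of the 9 genes, by a ratio from 1.09 for amy2a to 1.29 for ela3l. Among the 594 genes whose mean scaled count lay within 4-fold of those of the 9 genes, the median of this ratio was 1.01, and 33.2% of them reached at least 1.09. WT column 2 held the lowest value of the 5 libraries for 7 of the 9 genes and WT column 3 the highest for 5. Of the 27 Mutant values of the 9 genes, 18 fell between the WT values of the same gene. Residual SDs were above the median of those 594 genes (0.113 on the log2 scale) for 8 of the 9, and the median of the 9 was 0.141. Most of the 594 were less abundant than any of the 9, and genes as abundant as the 9 were not compared separately.

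Which WT library was used set the direction of the median difference. Without WT column 2 the median log2 fold change of the 9 genes was -0.11, and without WT column 3 it was 0.18. The difference in their share of the library, Mutant mean minus WT mean, was -0.29 percentage points without WT column 2 and 0.06 without WT column 3, against -0.11 with both. Over 13 other settings and libraries left out, 0 of 117 values of the 9 genes passed. Log2 fold changes over those settings ranged from -0.29 to 0.31, and the lowest adjusted p was 0.171. The signs of prss59.1, cpb1, ela2, ela2l and ela3l turned negative when columns were scaled to equal totals, which moved the median of all genes to -0.09, and under quantile normalization.

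The 9 genes went up and down together from library to library. After each gene was centred on its own mean, the average log2 deviation was -0.08, 0.05 and 0.05 in Mutant replicates 1 to 3, against -0.15 and 0.13 in WT columns 2 and 3. Pearson r with the average of the other 8 genes ranged from 0.520 for amy2a to 0.985 for ela2l, over 5 libraries. All 36 pairs of the 9 genes correlated positively, with r from 0.201 between ctrb1 and cpa5 to 0.987 between prss59.1 and ela3l and a median of 0.735. These values are a description of 5 points that share library and size factor, and no p is given.

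**Figure D3:**
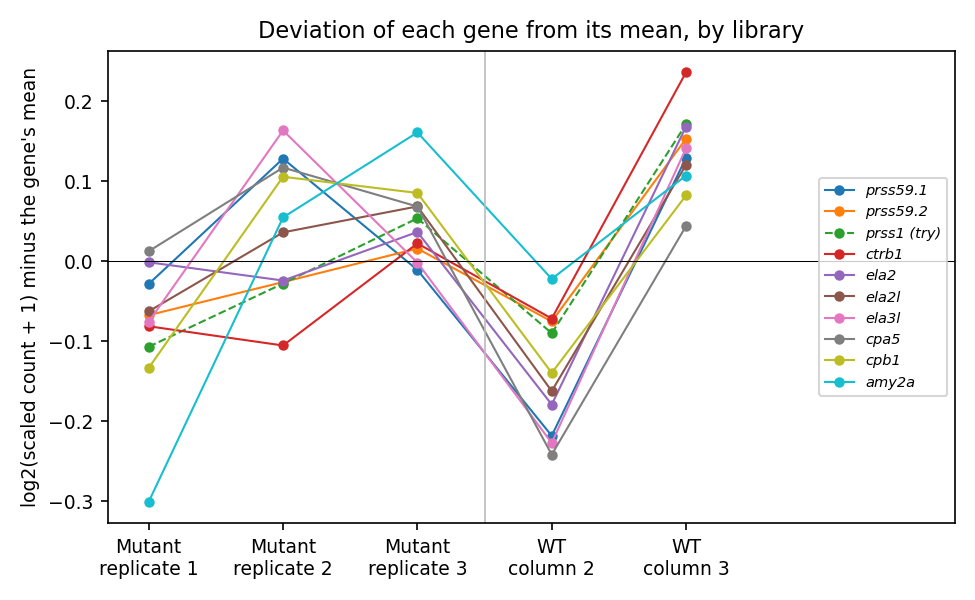
Deviation of log2(scaled count + 1) from the mean of each gene over the 5 libraries, with libraries labelled Mutant left of the grey line and those labelled WT right of it. The 9 enzyme genes and prss1 (dashed) are mostly low in Mutant replicate 1 and WT column 2 and high in WT column 3, with amy2a lowest in Mutant replicate 1 and ctrb1 low in Mutant replicate 2.

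Other pancreatic genes shared this pattern in part. The r with the average profile of the 9 genes was 0.887 for try, 0.888 for cel.1, which encodes bile salt-activated lipase, and 0.885 for the chymotrypsin-like protease gene ctrl. It was 0.881 for sycn.2, which encodes a syncollin of the zymogen granule membrane. The r was lower for cpa1 (0.50) and for cpb2 (0.119), whose mammalian counterpart is made in the liver. Outside the 9, the 10 genes with the most similar profile among 9812 genes compared were slc22a7b.3, mapk14a, pdxdc1, mgst1.2, gys2, mrps18a, grwd1, agk, dimt1l and fdxr, with r from 0.987 to 0.999. An r over 0.9 was reached by 148 of the 9812 genes.

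The mixture of enzymes was also compared within each library, as the share of each gene in the sum of the 9. This measure does not depend on the size factor. The share of cpa5 was 11.1%, 11.1% and 10.7% in Mutant replicates 1 to 3, against 9.82% and 9.77% in WT columns 2 and 3. The share of ctrb1 was 20.1%, 18.5% and 20.1% in the libraries labelled Mutant, against 21.4% and 21.7% in those labelled WT. Both genes therefore separated the groups, cpa5 higher and ctrb1 lower in the libraries labelled Mutant, although neither did so in scaled counts. Shares of prss59.2 were 12.8%, 12.3% and 12.6%, against 13.5% and 12.9% in the WT libraries. Those of ela2l were 10.6%, 10.6% and 10.8%, against 10.5% and 10.4% in the WT libraries. Shares of the other 5 genes overlapped between the groups. Shares of 4 of the 9 thus did not overlap. In scaled counts, a different measure, 44.9% of all genes tested did not overlap. No background was worked out for shares of a sum, so whether 4 of 9 is unusual was not tested.

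These differences in mixture were chosen for description after the values were seen, and shares of 1 sum are not independent of each other. With 3 libraries against 2, an exact permutation test cannot reach a p under 0.1, so no test is given. The difference in share, Mutant mean minus WT mean, was 1.16 percentage points for cpa5 and -1.99 for ctrb1. When each library was left out in turn, it ranged from 1.09 to 1.28 for cpa5 and from -2.27 to -1.43 for ctrb1. The difference for prss59.2 was -0.61 and ranged from -0.90 without WT column 3 to -0.32 without WT column 2.

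**Figure D4:**
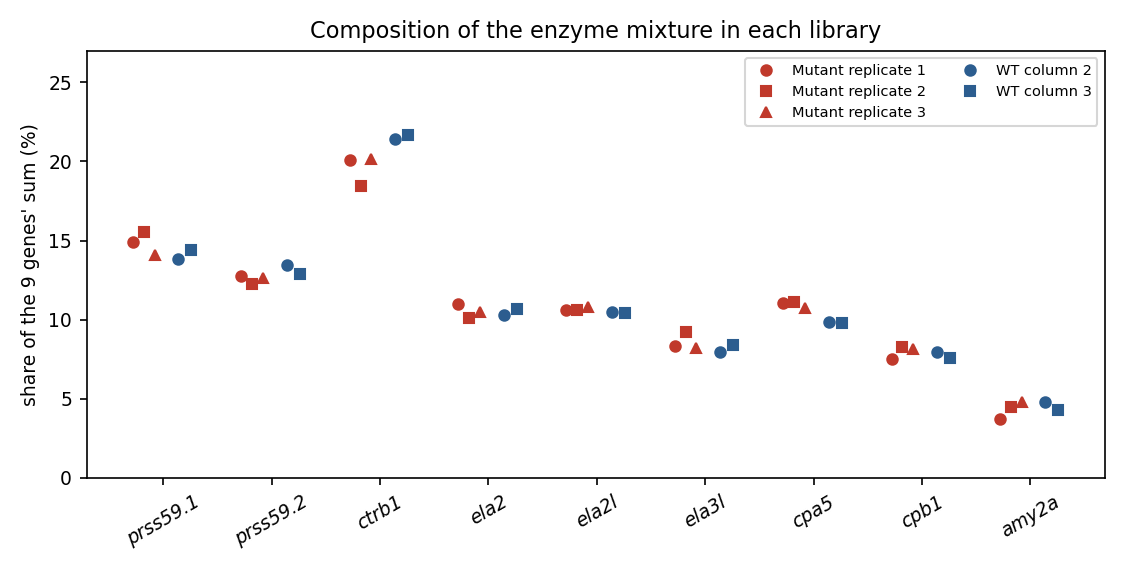
Share of each enzyme gene in the sum of the 9, in percent, for each library, with the libraries labelled Mutant in red left of those labelled WT in blue. The Mutant points lie above the WT points for cpa5 and below them for ctrb1. By narrower gaps they lie above the WT points for ela2l and below them for prss59.2. The groups overlap for the other genes.

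A list of 18 further pancreatic enzymes and cofactors, which included try, was read against the same background. Of these, 0 passed in either direction, and voom called 0 as well. In limma 3 had an unadjusted p under 0.05, beside 26.7% of all genes tested. Values of 4 did not overlap between the groups, beside 44.9% of all genes tested. The median log2 fold change was 0.09. Scaled counts of zgc:92137, which the table of gene names lists as the amylase-like gene amy2al2, were 756, 1025 and 962 in Mutant replicates 1 to 3, against 1094 and 1374 in WT columns 2 and 3. The groups did not overlap, yet the log2 fold change of -0.44 (SE 0.15) did not pass (limma, adjusted p = 0.105). The other amylase-like gene, zgc:66313 (amy2al1), had a log2 fold change of -0.09 (SE 0.21).

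The carboxypeptidase gene cpa1 is the neighbour of cpa5 and differed in sign from it. Scaled counts of cpa1 were 7276, 8272 and 7895 in Mutant replicates 1 to 3, against 8675 and 10152 in WT columns 2 and 3. Its log2 fold change of -0.27 (SE 0.11) did not pass (limma, adjusted p = 0.146). That of cpa4 was 0.21 (SE 0.15), and 0.09 without WT column 2. Lipolytic cel.1 and cel.2 had log2 fold changes of 0.05 (SE 0.12) and 0.21 (SE 0.12), and that of cel.2 was 0.08 without WT column 2. The pancreatic disulfide isomerase gene pdia2 had 0.07 (SE 0.16). The third gene with an unadjusted p under 0.05 was cpb2, at 0.45 (SE 0.15, adjusted p = 0.0955 in limma).

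Among 16 transcription factors of the acinar and wider pancreas, 2 passed as lower in the libraries labelled Mutant and 0 as higher. The median log2 fold change of the list was -0.15, and 2.68% of all genes tested passed as lower. In limma 3 of the 16 had an unadjusted p under 0.05, beside 26.7% of all genes tested. Values of 5 did not overlap between the groups, beside 44.9% of all genes tested. The 2 that passed were pdx1 and prox1a. The first is a factor of the early pancreas and of insulin cells, and prox1a acts in liver, pancreas, retina and lymphatic vessels. Scaled counts of pdx1 were 45.5, 40.9 and 54.6 in Mutant replicates 1 to 3, against 80.1 and 113 in WT columns 2 and 3. This was a log2 fold change of -1.01, with an SE of 0.23 (limma, adjusted p = 0.0368). That of prox1a was -0.46 (SE 0.11, adjusted p = 0.0398 in limma). When a library was left out, at most 1 gene of the list passed, and 0 passed without Mutant replicate 1, Mutant replicate 2 or WT column 2.

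The factors ptf1a, rbpjl, bhlha15 and nr5a2, which act in acinar cells, did not pass. The log2 fold change of ptf1a, which specifies acinar cells, was -0.02 (SE 0.27). That of rbpjl, its partner in acinar cells, was 0.07 (SE 0.22), and scaling to equal totals gave -0.02. Scaled counts of bhlha15, the gene of the secretory cell factor Mist1, were 12.9, 17.2 and 18.2 in the libraries labelled Mutant, against 29.3 and 30.7 in those labelled WT. The groups did not overlap at these low counts, and the log2 fold change of -0.87 (SE 0.30) did not pass (limma, adjusted p = 0.105). The nuclear receptor gene nr5a2, which is needed for acinar enzyme expression in mice, had a log2 fold change of -0.11 (SE 0.13).

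The endocrine pancreas was compared through 20 islet genes. Of these, 3 passed, all lower in the libraries labelled Mutant, beside 2.68% of all genes tested. The median log2 fold change was -0.09. In limma 9 had an unadjusted p under 0.05, beside 26.7% of all genes tested. Values of 11 did not overlap between the groups, beside 44.9% of all genes tested. The 3 that passed were the transcription factor genes neurod1 (-0.63, adjusted p = 0.0320 in limma), pax6b (-0.58, adjusted p = 0.0377) and isl1 (-0.49, adjusted p = 0.0472). All 3 are also expressed in neurons and in the retina. Mean scaled counts over the 5 libraries were 4597 for neurod1, 913 for pax6b and 713 for isl1. Those of the hormone genes ins, gcga and sst2 were 375, 222 and 116. How much of the reads of these 3 factors came from islet cells was not tested. The neuronal markers elavl3 and snap25a had log2 fold changes of -0.40 and -0.15, and the photoreceptor markers rho and opn1sw1 had -0.41 and -0.61. None of these markers passed, and values of snap25a overlapped between the groups. Their part in the islet result was not tested. Insulin transcripts (ins) numbered 422, 378 and 388 as scaled counts in Mutant replicates 1 to 3, against 355 and 333 in WT columns 2 and 3 (log2 fold change 0.20, SE 0.12). The glucagon genes gcga and gcgb had 0.52 (SE 0.18; limma, adjusted p = 0.102) and 0.34 (SE 0.23). Of the somatostatin genes, sst2 had -0.22 (SE 0.16), while sst1.1 had 0.10 (SE 0.16) and sst1.2 had 0.20 (SE 0.20). Besides the genes that passed, an unadjusted p under 0.05 in limma was found for pcsk1, pcsk2, nkx6.2 and scg3, all lower in the Mutant group. It was also found for gcga and pyyb, both higher. Without Mutant replicate 1, Mutant replicate 2 or WT column 2, 0 of the islet genes passed.

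Liver and gut, which also arise from the endoderm, were compared in the same way. Of 23 liver genes, 7 passed as higher in the Mutant group and 0 as lower, beside 3.32% and 2.68% of all genes tested. The median log2 fold change was 0.38. In limma 14 had an unadjusted p under 0.05, beside 26.7% of all genes tested. Values of 14 did not overlap between the groups, beside 44.9% of all genes tested. The largest of the changes that passed was that of tfa, the transferrin gene, with 81502, 98299 and 73777 scaled counts in Mutant replicates 1 to 3, against 30823 and 51727 in WT columns 2 and 3 (log2 fold change 1.07, adjusted p = 0.0239 in limma). The others were f2, cp, ahsg2, fgg, apoa2 and itih2, at 0.38 to 0.63. The count of liver genes was 4 under equal totals and under quantile normalization, 3 without Mutant replicate 1, 0 without Mutant replicate 2 or without WT column 2, and 12 without WT column 3. The difference in change between liver and pancreatic genes was not tested.

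Of 29 enterocyte genes, 4 passed as higher in the Mutant group and 1 as lower, beside 3.32% and 2.68% of all genes tested. The median log2 fold change was 0.08. In limma 10 had an unadjusted p under 0.05, beside 26.7% of all genes tested. Values of 8 did not overlap between the groups, beside 44.9% of all genes tested. The higher genes were the apolipoprotein genes apoa4a (1.59, adjusted p = 0.0286 in limma) and apoa4b.2 (0.64, adjusted p = 0.0275), the intestinal alkaline phosphatase gene alpi.2 (0.61, adjusted p = 0.0256) and DAB2 (0.38, adjusted p = 0.0456), an adaptor of endocytosis. Another row of that symbol, dab2 (ENSDARG00000031761), was also among the 29 and did not pass (-0.04; limma, adjusted p = 0.871). The gene that passed as lower was mep1b (-0.78, adjusted p = 0.0421 in limma), a brush border protease. Without Mutant replicate 2 or WT column 2, 0 enterocyte genes passed, and without Mutant replicate 1 there were 2, both higher. The call of mep1b was also lost without WT column 3.

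Secreted enzymes enter the endoplasmic reticulum as they are made, and 26 genes were listed for that entry. The list also held genes of protein folding and of the response to misfolded protein, such as hsp90b1, pdia4, dnajb11, dnajc3a and xbp1. Of the 26, 0 passed in limma and 0 in voom. In limma 2 (spcs1 and sec11a, subunits of signal peptidase) had an unadjusted p under 0.05, beside 26.7% of all genes tested. Values of 6 did not overlap between the groups, beside 44.9% of all genes tested. The median log2 fold change was 0.17. A list of secretagogues and their receptors, with 12 tested genes, also held the appetite and neuropeptide genes npy, agrp, galn and lepr. Of the 12, 0 passed in limma or voom, and the median log2 fold change was -0.13. In limma 2 had an unadjusted p under 0.05, beside 26.7% of all genes tested. Values of 4 did not overlap between the groups, beside 44.9% of all genes tested. The 2 with an unadjusted p under 0.05 were ccka and vipr1b. The first encodes the hormone cholecystokinin, which triggers enzyme release, and had a log2 fold change of -0.39 (SE 0.15; limma, adjusted p = 0.134). In whole larvae the tissue that its reads came from cannot be told. A receptor of vasoactive intestinal peptide, vipr1b, had -0.76 (SE 0.23; limma, adjusted p = 0.0772).

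**Figure D5:**
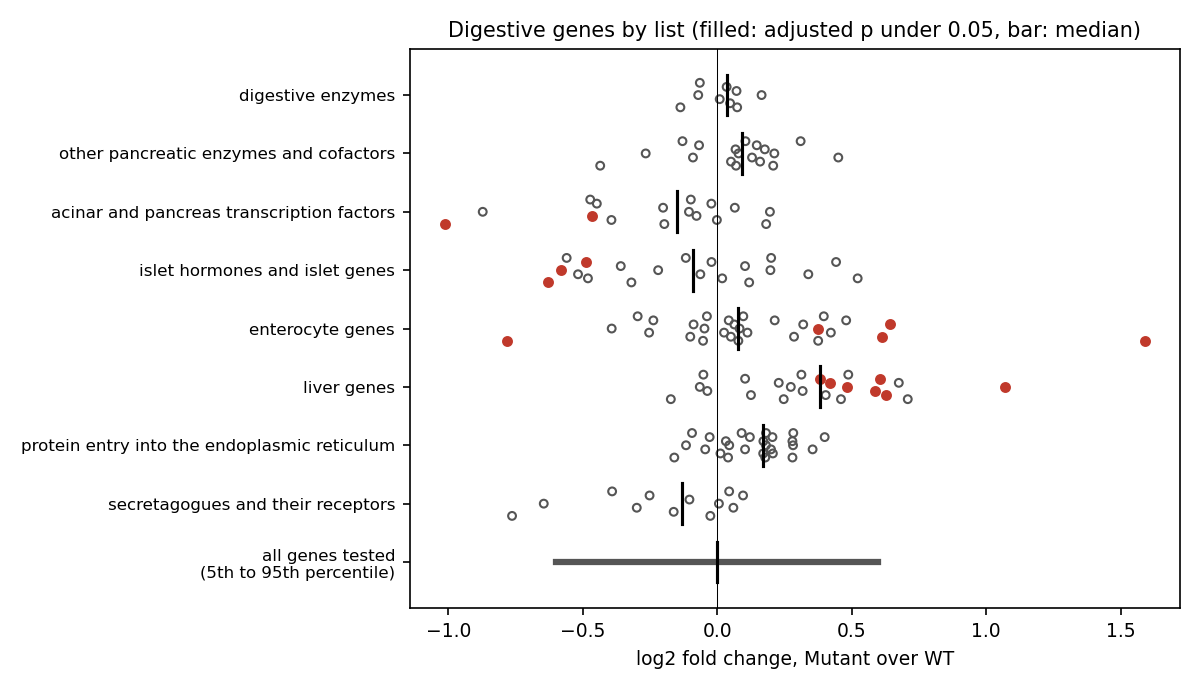
Log2 fold change of Mutant over WT for every tested gene of each list, filled where the adjusted p was under 0.05 in limma, with a bar at the median of the list and, at the bottom, the 5th to 95th percentile of all genes tested (-0.60 to 0.60). The 9 digestive enzymes lie between -0.14 and 0.16. The liver list holds filled points to the right, and the transcription factor and islet lists hold filled points to the left. The enterocyte list holds filled points on both sides, with mep1b on the left.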

How the data were processed

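Poly(A) RNA of pooled whole larvae was sequenced as stranded paired ends. The authors aligned reads to danRer7 with STAR, counted them per gene with HTSeq 0.5.3 and scaled them with DESeq. What the authors deposited is a signal for each gene in each library, the count divided by a size factor with 1 added. Subtracting 1 gave the scaled count. Whether counting used the strand is not given in the sources used here.

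Log2(scaled count + 1) was compared between Mutant and WT in R 4.3.3 by the two-sided test of limma 3.58.1, its prior variance following the mean level. Genes averaging under 10 scaled counts (1547) were left out, so 20307 were tested. P-values were adjusted by the Benjamini-Hochberg method, and a gene passed at an adjusted p under 0.05. Fold changes are on that log2 scale and understate changes of low genes. Nothing states that the pools were from separate clutches, so p-values measure the spread between these libraries. With 3 libraries against 2, exact permutation cannot go below 0.1. On simulated data, the fit called 199 of 200 genes changed by 1.5 on the log2 scale, and 3 of 20284 tested genes were unchanged yet called. Those data gave every gene the same relative scatter between libraries and no shifts shared by genes. Changes as small as those of the enzyme genes (-0.14 to 0.16) were not simulated, so how often they would be called is not shown.

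The genes and the 7 lists were chosen with earlier results of these data known. Named genes were the enzyme genes, zbtb24, the list genes that passed and the 10 most similar profiles, taken from genes averaging 100 scaled counts or more. Other genes were named for their role or an unadjusted p under 0.05. Symbols were matched in the table, in a table of gene names (93.7% of identifiers found) and in RefSeq GRCz12tu, which gave only the chromosome and order of genes. No sequences are shown. Alternatives were pseudocounts of 0.5 and 8, other filters and scalings, voom, a robust prior and omission of single libraries.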

Additional observations from a re-analysis of the deposited data

How the results depend on the processing

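None of the 13 alternatives made any of the 9 enzyme genes pass. Among 47 genes named in the text, 343 of 373 values under 8 alternatives with all libraries kept their direction and their side of the threshold, 15 changed sign and 15 lost a call. With 1 library left out, 156 of 235 did so, 20 changed sign, 58 lost a call and 1, zgc:136461 without WT column 3, gained one. Each value that changed sign belonged to a gene that did not pass in the reported fit. A call could be lost only by a gene that passed in the reported fit, and such genes were a minority of the 47. The share of values that lost a call was therefore larger among those genes than over all values. Under equal totals the log2 fold change was -0.010 for prss59.1, -0.037 for cpb1, -0.075 for ela2, -0.050 for ela2l, -0.013 for ela3l, -0.033 for cel.1, -0.015 for pdia2 and -0.018 for rbpjl. That scaling moved the median of all genes to -0.09, and 1103 genes passed as lower in the Mutant group. Under quantile normalization it was -0.19 for prss59.1, -0.049 for cpb1, -0.10 for ela2, -0.10 for ela2l, -0.035 for ela3l, -0.050 for cel.1 and -0.088 for zgc:112160. There 1 of the 9 genes, prss59.2, had an unadjusted p under 0.05 (adjusted p = 0.171 in limma). Liver genes that passed numbered 4 under either scaling. The call of apoa4a was lost with a robust prior (adjusted p = 0.109 in limma). The cause was not tested for any of these.

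With each library left out in turn, log2 fold changes ranged from -0.10 to 0.25 for prss59.1, -0.18 to 0.049 for prss59.2, -0.20 to 0.063 for try, -0.29 to 0.017 for ctrb1, 0.022 to 0.31 for cpa5, -0.063 to 0.16 for cpb1, -0.16 to 0.18 for ela2, -0.11 to 0.18 for ela2l, -0.11 to 0.26 for ela3l and -0.17 to 0.065 for amy2a. Outside the 9 they ranged from -0.059 to 0.16 for cel.1, 0.082 to 0.34 for cel.2, 0.092 to 0.35 for cpa4, -0.12 to 0.26 for pdia2, -0.23 to 0.051 for zgc:66313, -0.032 to 0.22 for zgc:112160, -0.21 to 0.55 for zgc:136461 and -0.13 to 0.046 for ptf1a. The median of the 9 genes ranged from -0.11 to 0.18, that of the liver genes from 0.16 to 0.48, and the difference in library share from -0.29 to 0.063 percentage points. Genes that passed numbered 31 to 1317 as higher and 13 to 1111 as lower over all genes, both lowest without WT column 2 and highest without WT column 3. In the lists they numbered 0 to 1 for transcription factors, 0 to 4 for islet genes, 0 to 4 higher and 0 to 1 lower for enterocyte genes, 0 to 12 for liver genes and 0 to 4 for genes of entry into the endoplasmic reticulum. Where 1 WT library remained, it was assumed to vary like the libraries labelled Mutant.

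No paired analysis was possible because the WT columns carry numbers that do not match the sample titles. The count tests of edgeR and DESeq2 were not run. The deposited values are whole multiples of 1 step only after the added 1 is subtracted, so they were treated as scaled signal and not as counts. Groups of 2 and 3 libraries are too small for a check of single outlying libraries. For the enzyme genes, counting error was small at this depth, so the number of libraries limited precision. For genes of low count, such as bhlha15 and pdx1, counting error is larger, and its size was not worked out.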
